A study of Sus scrofa with 18 samples.

Results

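The peaks of H3K4me3 and of H3K27ac were compared within the circular muscle of the pregnant pig uterus (GD15M_CM). All 113476 peaks of this tissue were used, out of 320764 peaks in the 6 lists of the series. The lists held 33599 H3K4me3 peaks and 79877 H3K27ac peaks. A peak sharing 1 bp or more with the other mark was placed in the class with both marks, and otherwise in the class H3K4me3 only or H3K27ac only. The tissue came from the mesometrial side of the uterus of Yorkshire gilts that had been mated naturally, on day 15 of pregnancy. Each mark was profiled in n = 2 gilts by CUT&Tag, in which protein A fused to the Tn5 transposase cuts the DNA around the bound antibody, and an IgG control was made for the same tissue. Circular muscle of cyclic gilts (CD15M_CM, cycle day 15) and longitudinal muscle of pregnant gilts (GD15M_LM) were profiled in the same way and are given only for comparison. The gilts of a group were pooled before peaks were called, so that no value per gilt, no spread between gilts and no test could be obtained here. All values therefore describe pooled libraries, and the 95% Wilson intervals of shares cover counting error only. The lists hold no read counts, and the depth behind a peak is therefore unknown here.

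H3K4me3 is deposited around the start of active genes by methyltransferases of the SET1 and MLL type. H3K27ac is deposited by the acetyltransferases p300 and CBP at active promoters and at active enhancers, which often lie inside introns or between genes. A place with both marks is usually read as an active promoter, a distal place with H3K27ac alone as an active enhancer, and H3K4me3 without acetylation has been described at promoters that are poised or active in few cells. The circular layer is the inner smooth muscle of the uterus, lying against the endometrium.

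The label of the tissue was checked against marker genes. Among 26 genes of the smooth muscle contractile apparatus, 23 had both marks within 3 kb of an end of the gene, 2 had H3K4me3 only and 1 had neither, beside 66.3% of all protein-coding genes with both marks and 25.5% with neither. Among 28 genes for liver, skeletal muscle and heart products, 7 had both marks, 1 had H3K27ac only and 20 had neither. All 15 placed genes of the uterine epithelium had both marks, and so did 9 of 18 T cell genes, which is below the share of all genes. Genes of other cell types thus carried marks in this tissue. Few cells of a type and little mark per cell cannot be told apart in such tissue pieces, and the part that such cells had in the values was not tested.

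H3K27ac was found at most H3K4me3 peaks, whereas H3K4me3 was found at a minority of H3K27ac peaks. Of the H3K4me3 peaks, 23394 overlapped an H3K27ac peak (69.6%, 95% Wilson interval 69.1 to 70.1) and 10205 did not. Of the H3K27ac peaks, 27212 overlapped an H3K4me3 peak (34.1%, 33.7 to 34.4) and 52665 did not. Counted in base pairs, 67.3% of the H3K4me3 peaks and 47.1% of the H3K27ac peaks lay under the other mark. The shares in GD15M_LM were 69.6% and 46.1%, and those in CD15M_CM were 68.4% and 35.2%. The order of the shares changed with the peaks that were kept in each list. When both lists were held to a fold enrichment of at least 5 and a −log10 p of at least 10, 15753 H3K4me3 and 9711 H3K27ac peaks were left. Then 43.7% of the H3K4me3 peaks and 74.1% of the H3K27ac peaks overlapped the other mark. The fold enrichments of the lists are not on a common scale, so this cut is not equally strict for both marks. When the 33599 H3K27ac peaks of lowest p were set against all H3K4me3 peaks, the shares were 52.9% and 54.6%. Lists of equal length give near equal shares where most overlaps pair single peaks, so this setting does not bear on the order.

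The overlap rose with the rank of a peak. The fold enrichment of a peak is its signal over the IgG control, and because the lists of both marks are not on a common scale it was used as a percentile within its own list. In the lowest decile of H3K4me3 fold enrichment 48.7% of peaks overlapped H3K27ac, and the share stayed between 47.5% and 52.2% up to the 5th decile. It was 64.4% in the 6th decile, 86.8% in the 7th and 98.5% in the 8th. In the highest decile, with a fold enrichment of 20.3 to 43.8, 3356 of 3358 peaks overlapped H3K27ac. For H3K27ac the share with H3K4me3 was 20.4% in the lowest decile, 53.3% in the 9th and 81.7% in the highest, which had a fold enrichment of 5.39 to 23.7. Ranked by length, the share ran from 38.2% to 99.5% for H3K4me3 and from 14.5% to 82.0% for H3K27ac. A long peak has more bases that can meet another peak, so length and overlap are not independent by construction.

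**Figure D1:**
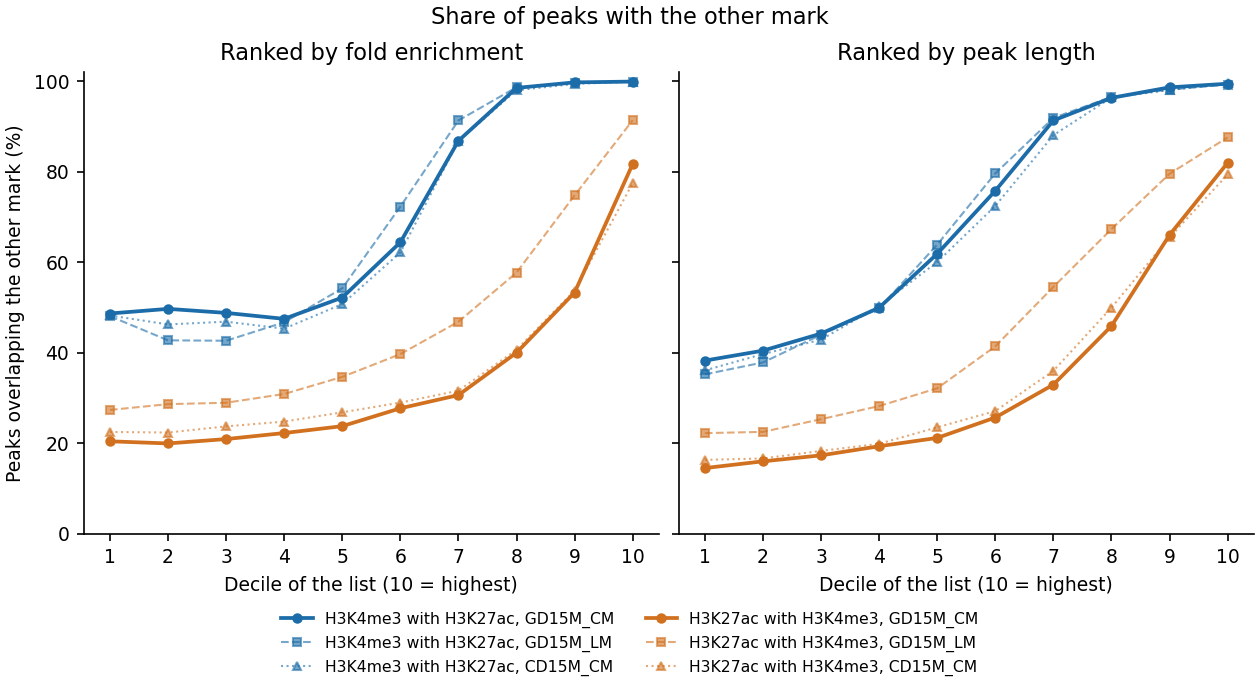
The percentage of peaks that overlapped the other mark (vertical axis) is plotted for each decile of a list, ranked by fold enrichment (left) or by length (right), with filled circles and thick lines for GD15M_CM and squares and triangles for the other tissues. In GD15M_CM the H3K4me3 peaks (blue) went from 48.7% in the lowest to 99.9% in the highest decile of fold enrichment, and the H3K27ac peaks (orange) from 20.4% to 81.7%.

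Peaks with a single mark were short and weak. An H3K4me3 peak without H3K27ac had a median length of 347 bp (quartiles 250 and 527 bp) and a median fold enrichment of 3.68, against 1490 bp (529 and 2649 bp) and 8.53 for H3K4me3 peaks with H3K27ac. The 10205 peaks that had no H3K27ac held 10.1% of the base pairs under H3K4me3. An H3K27ac peak without H3K4me3 had a median length of 410 bp and a median fold enrichment of 3.29, against 1049 bp and 4.11 with H3K4me3. As percentiles in their own lists, the medians without and with the other mark were 29.7 and 64.5 for H3K4me3 and 41.7 and 71.1 for H3K27ac. H3K27ac-only peaks made up 44.5% of the base pairs under their mark. The longest H3K4me3-only peak, of 6320 bp, lay over CD3D and CD3G, which encode subunits of the T cell receptor complex (chromosome 9, 45641205 to 45647524, Sscrofa11.1).

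**Figure D2:**
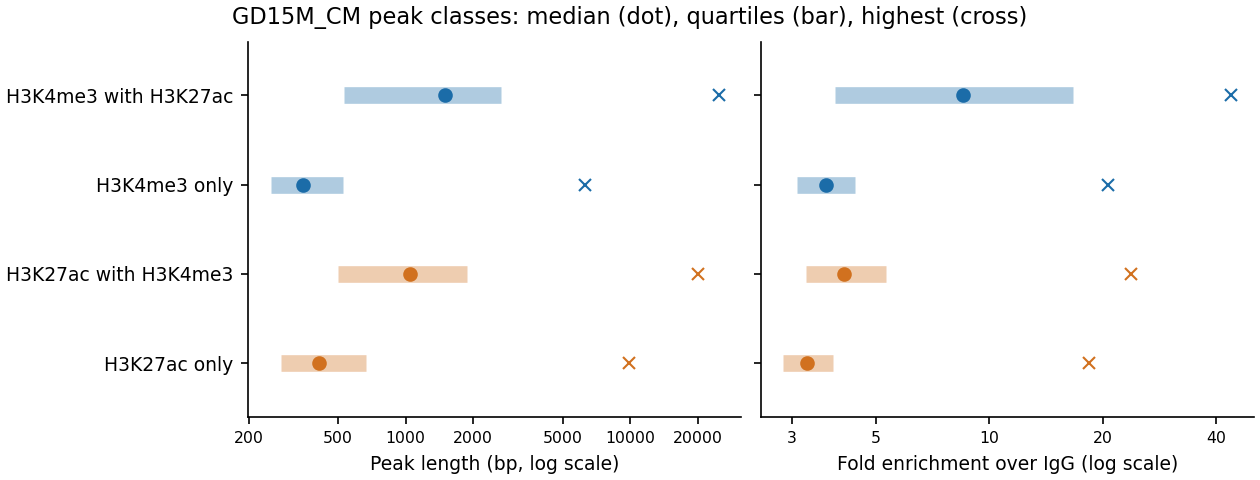
Peak length in bp (left) and fold enrichment over IgG (right), both on log axes, are shown for the 4 classes of GD15M_CM peaks, with the median as a dot, the quartiles as a bar and the highest value as a cross. Both single-mark classes had their medians at 347 and 410 bp, below the 1490 and 1049 bp of the peaks with both marks.

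The single-mark peaks of both marks also lay in different places. Of the H3K4me3-only peaks on the chromosomes, 69.5% (68.6 to 70.4) lay within 3 kb of an end of a RefSeq gene, 24.1% inside a gene farther from its ends and 6.48% outside genes. These shares were close to those of H3K4me3 peaks with H3K27ac, which were 69.8%, 22.6% and 7.68%. Only 17.4% (17.1 to 17.7) of the H3K27ac-only peaks lay near a gene end, and 62.2% lay inside genes and 20.5% outside them. H3K27ac peaks with H3K4me3 were near a gene end in 73.6% of cases. The strand of the genes was not used, so an end can be the start or the 3′ end of a gene. The H3K4me3-only peaks lay nearer to the other mark than the H3K27ac-only peaks: 42.6% lay within 1 kb of an H3K27ac peak and the median gap was 1216.5 bp. The median gap from an H3K27ac-only peak to H3K4me3 was 16420.5 bp, and 61.6% of them were at least 10 kb away. The H3K27ac list held 79877 peaks against 33599 for H3K4me3, and a list with more peaks leaves shorter gaps to any place. The part of the list sizes in this order was not tested. Joining peaks of a list that were less than 1 kb apart raised the share of H3K4me3 with H3K27ac to 83.2%.

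Where the marks met, the H3K27ac peak was often the inner one. In 55.2% of the 29065 overlapping pairs the H3K27ac peak lay wholly inside the H3K4me3 peak, and in 18.6% the reverse held. The median shared H3K4me3 peak was covered by H3K27ac over 81.7% of its length. Of the shared H3K4me3 peaks 4334 (18.5%) carried at least 2 H3K27ac peaks, and the most on a single peak was 10.

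The strongest peaks of the classes were looked up by their nearest gene. Among the H3K4me3 peaks with H3K27ac, ROCK2, a kinase that sensitises smooth muscle to calcium, had a fold enrichment of 43.4 and an H3K27ac percentile of 97.9. It was followed by a peak 3002 bp from DHRS7B with 43.2 and by peaks at ZBTB10 and CPEB2 with 43.2 and 42.9. The highest H3K27ac fold enrichment with H3K4me3 was 23.7 at NEMF, a ribosome quality control factor, ahead of a peak 18106 bp from TLR9 with 16.4 and of ZC3H4 with 13.7. The H3K4me3-only peaks of highest fold enrichment reached at most 20.7. They included a peak of 737 bp at TAF4, a subunit of the general transcription factor TFIID, with 20.5 and an H3K27ac peak 283 bp away, and a peak of 3737 bp on the unplaced scaffold AEMK02000333.1 with 20.2. The H3K27ac-only peak of highest fold enrichment (18.3, 671 bp) lay 331153 bp from the nearest gene, PRKX. A peak of 367 bp with 11.5 lay 105431 bp from MDFIC, one of 369 bp lay 178920 bp from NEDD1, and one of 930 bp with 10.7 lay 2007 bp from CTDP1.

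The marks were then compared at genes. Of 19550 protein-coding RefSeq genes on the chromosomes, 12962 (66.3%) had peaks of both marks within 3 kb of either end, 845 (4.32%) of H3K4me3 only, 750 (3.84%) of H3K27ac only and 4993 (25.5%) of neither. The single-mark classes were of near equal size in the whole lists but not in shortened ones: under the strict threshold 6764 genes had both marks, 6094 H3K4me3 only and 55 H3K27ac only, and with equal list lengths 2043 had H3K4me3 only and 253 H3K27ac only. For each mark the peak of highest fold enrichment in the window was taken. Among the genes with both marks these peaks overlapped each other in 87.1%, and their percentiles rose together, with Spearman's rho of 0.64 over the 12962 genes. Their lengths had a rho of 0.60. The points share the same pooled libraries and IgG control, and neighbouring genes can share a peak, so these values describe the lists. The median gene with both marks had an H3K4me3 percentile of 82.4 and an H3K27ac percentile of 87.9, with peaks of 2596.5 and 1659.5 bp, and the H3K4me3 peak was the longer one at 89.3% of the genes.

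The likeness of the marks was mostly that of the highest genes. Of 8860 genes above percentile 75 for H3K4me3, 85.6% were also above percentile 75 for H3K27ac, and 89 were at or below percentile 25. The median H3K27ac percentile over all genes with both marks was 87.9, so most of all these genes were above percentile 75 too. Of the 3603 genes between percentiles 50 and 75 for H3K4me3, 41.4% were above percentile 75 for H3K27ac and 10.8% at or below 25. The 174 genes at or below percentile 25 for H3K4me3 were spread over H3K27ac, with 47, 49, 49 and 29 genes in its 4 equal percentile ranges from the lowest up. The difference of the percentiles, H3K4me3 minus H3K27ac, had a median of −1.94 and quartiles of −9.03 and 6.53. At 344 genes (2.65% of those with both marks) H3K4me3 was at least 50 percentile points above H3K27ac, and at 65 (0.501%) H3K27ac was that far above H3K4me3. Both counts, and their ratio, depended on the ranking: they were 422 and 319 with percentiles taken over genes with both marks, 137 and 54 by −log10 p, 957 and 41 under the strict threshold and 1402 and 17 with equal list lengths.

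**Figure D3:**
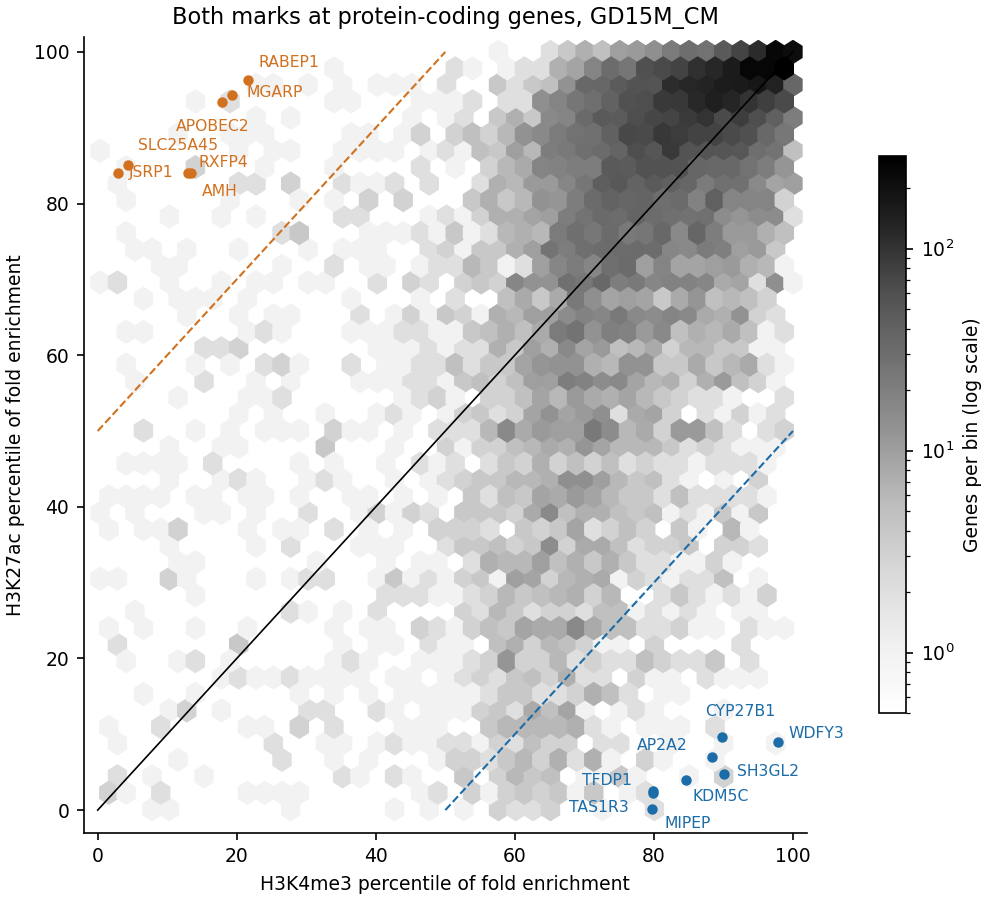
Each protein-coding gene with both marks in GD15M_CM is placed by the percentile of its strongest H3K4me3 peak (horizontal) and of its strongest H3K27ac peak (vertical), with grey hexagons for the number of genes on a log scale, a solid line for equal percentiles and dashed lines at a difference of 50 points. The genes crowd at the upper right, and genes that lie far from the line in each direction are named, in blue for H3K4me3 and in orange for H3K27ac.

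The genes with H3K4me3 far above H3K27ac had weak acetylation at the same place. Among the 344 genes the strongest peaks overlapped in 88.4%, and the median H3K27ac peak was 944.5 bp long with a fold enrichment of 2.65, a percentile of 13.4. By −log10 p, the same H3K27ac peaks had a median percentile of 33.6, and 107 of the 344 genes were again at least 50 points apart. The largest difference was at WDFY3, a scaffold protein of selective autophagy (chromosome 8, 133665585 to 133939860). Its H3K4me3 peak of 2867 bp had a fold enrichment of 27.9 (percentile 97.8), and its H3K27ac peak of 2284 bp at the same end of the gene had 2.52 (percentile 8.92). SH3GL2, an endocytic endophilin, had 20.4 against 2.37 (percentiles 90.1 and 4.82). AP2A2, a subunit of the clathrin adaptor AP-2, had 19.3 over 3999 bp against 2.47 over 3298 bp. KDM5C, which removes methyl groups from H3K4 and lies on the X chromosome (45968812 to 46003215), had 17.6 over 3934 bp against 2.34 over 3186 bp. At these genes the peaks of both marks were thus of similar extent and far apart in rank of fold enrichment. By −log10 p the percentiles of WDFY3 were 96.9 and 51.6, less than 50 points apart. Those of SH3GL2 (79.1 and 4.15), AP2A2 (86.3 and 27.8) and KDM5C (87.3 and 34.4) remained more than 50 points apart.

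At CYP27B1 and TAS1R3 the H3K27ac value changed with the window. CYP27B1, the enzyme that makes active vitamin D, shared an H3K4me3 peak of 3275 bp with EEF1AKMT3 and METTL1, and the strongest H3K27ac peak in its own window had 243 bp and a fold enrichment of 2.55, while the windows of both neighbours held one of 1697 bp with 5.09 that overlaps the same H3K4me3 peak. MIPEP, a mitochondrial peptidase, had percentiles of 79.7 and 0.11. TFDP1, the partner of E2F factors, had 79.8 and 2.47. TAS1R3, a sweet and umami taste receptor, shared an H3K4me3 peak of percentile 79.8 with CPTP, and H3K27ac had a fold enrichment of 2.23 in the window of TAS1R3 and a percentile of 86.3 at CPTP. H3K27ac often ranked higher in the other tissues. WDFY3 had an H3K27ac percentile of 68.4 in GD15M_LM and 42.6 in CD15M_CM, AP2A2 had 81.7 and 95.6, and KDM5C had 97.1 and 81.7, while CYP27B1 had H3K4me3 only in both. Over the 344 genes, which were chosen on the GD15M_CM values, the median H3K27ac percentile was 72.8 at the 311 genes with both marks in GD15M_LM and 70.6 at the 321 in CD15M_CM. A difference of 50 points or more was found again at 14 genes (4.07%) in GD15M_LM, where 3.16% of all genes with both marks passed it, and at 37 (10.8%) in CD15M_CM, where 3.50% did.

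The genes with H3K27ac far above H3K4me3 had small H3K4me3 peaks. Among the 65 genes the median H3K4me3 peak had 444 bp and a fold enrichment of 3.26 (percentile 19.3), and the median H3K27ac peak had 1085 bp and 4.73 (percentile 82.9). The strongest peaks overlapped at 50.8% of these genes, against 87.1% of all genes with both marks, so that many of the pairs set side by side lay at different places of the window. None of the 65 genes lay on the X chromosome, which holds 2.82% of the genes with both marks. JSRP1, a protein of the junctional sarcoplasmic reticulum (chromosome 2, 76418508 to 76422405), had an H3K4me3 peak of 342 bp with 2.47 (percentile 2.99) and an H3K27ac peak of 2049 bp with 4.79 (percentile 84.0). The same H3K27ac peak was that of its neighbour AMH, anti-Müllerian hormone, whose H3K4me3 peak had a percentile of 13.5, and it also reached into the window of SF3A2. The peaks compared at JSRP1 lay on opposite sides of the gene and did not overlap.

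SLC25A45, a mitochondrial carrier, had percentiles of 4.36 for H3K4me3 and 85.1 for H3K27ac, and the difference had the same direction in GD15M_LM (13.8 and 87.3) and in CD15M_CM (41.5 and 89.1). At MGARP, a mitochondrial protein, peaks of 464 and 605 bp lay on each other with percentiles of 19.3 and 94.3, and the order was reversed in GD15M_LM (41.0 and 5.74) and in CD15M_CM (56.5 and 15.6). RABEP1, an effector of the endosomal GTPase Rab5, had percentiles of 21.7 and 96.3, APOBEC2 of 17.9 and 93.4, and the relaxin-family receptor RXFP4 of 13.0 and 84.0. The peaks compared at SLC25A45, RABEP1, APOBEC2 and RXFP4 did not overlap, so these values do not compare the marks at the same place. At SLC25A45 and RABEP1 they lay at opposite ends of the gene. Of the 65 genes, 9 (13.8%) passed 50 points in the same direction in GD15M_LM and 4 (6.15%) in CD15M_CM, beside 0.330% and 0.419% of all genes with both marks there.

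Genes with H3K4me3 only were rarely strong. Their strongest peak had a median percentile of 52.8 and a median length of 860 bp, and 35 of the 845 (4.14%) reached a percentile of 75. The 8 of highest percentile were PIANP, GSDMA, FSD2, EHBP1, BRS3, TELO2, MEFV and PRMT6, with the highest at 98.6. At all 8, the H3K4me3 peak itself overlapped an H3K27ac peak that lay outside the 3 kb window. The peak at PIANP (3790 bp, fold enrichment 30.1) was also that of ZNF384 and the peak at GSDMA (2985 bp, 30.0) also that of PSMD3, a proteasome subunit, so these genes had H3K4me3 only by the edge of the window. Such peaks were found at 38 of the 845 genes, and 163 had H3K27ac inside the gene farther from its ends. The other 663 genes (78.5%, 75.6 to 81.1) had neither, with a median percentile of 51.2 and a highest of 84.8.

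The 10 named genes of highest H3K4me3 percentile among these 663 were chosen after the values had been seen. GIMAP4, a GTPase of lymphocytes, had a peak of 2432 bp with a fold enrichment of 15.3 (percentile 79.4), which also served GIMAP7. VCAM1, the vascular cell adhesion molecule, had a peak of 1921 bp with 13.6, and its class was also H3K4me3 only in GD15M_LM but both marks in CD15M_CM, with percentiles of 72.8 and 62.6. PCDH17, a protocadherin, had an H3K4me3 domain of 5621 bp with 13.6 (chromosome 11, 30510374 to 30515994) and no H3K27ac in or near the gene, and was in the same class in both other tissues. FCGR3A, an Fc receptor of natural killer cells and macrophages, had a peak of 1577 bp with 11.9 and was in the same class in both other tissues, as was SCML1 on the X chromosome, with 15.0. The peak of FCGR3A lay outside the gene and only reached into its window. The other five were PUS3, TMPO, NME5, TMEM225B and NMU, with percentiles between 73.0 and 78.4. The peak of NMU also lay outside the gene.

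Genes with H3K27ac only had a median percentile of 39.2 and a median peak length of 435 bp. Of the 750 genes, 98 (13.1%, 10.8 to 15.7) reached a percentile of 75. At 172 (22.9%) an H3K4me3 peak lay inside the gene farther than 3 kb from both annotated ends, and at 10 the H3K27ac peak met an H3K4me3 peak outside the window. The 8 of highest percentile were ABCC2, PLPP1, ZBTB2, MRO, ARL3, ANKDD1A, ELMO1 and GM2A, with values from 90.7 to 96.3, and 6 of these held H3K4me3 inside the gene. The exceptions were ABCC2 and ARL3. ABCC2, a transporter of conjugated bile pigments (chromosome 14, 110955698 to 111038898), had an H3K27ac peak of 1671 bp with a fold enrichment of 6.65. It had H3K27ac only in CD15M_CM also, and both marks in GD15M_LM, with percentiles of 8.61 for H3K4me3 and 74.9 for H3K27ac. ARL3, a GTPase of ciliary transport, had a peak of 1319 bp with 5.88 and both marks in the other tissues.

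Further genes with H3K27ac only and no H3K4me3 in the gene or at the peak were HTR2B, DMBT1, CACNA2D4, HRCT1 and CRYGN, chosen after the values had been seen. HTR2B, the serotonin 2B receptor that acts in smooth muscle, had an H3K27ac peak of 239 bp with a percentile of 86.8 and was in this class in all 3 tissues. So were DMBT1, a mucosal scavenger glycoprotein, with 88.2, and CRYGN, a crystallin, with a peak of 3253 bp that it shared with WDR86. The peaks of HTR2B, DMBT1 and CRYGN lay outside these genes, in or reaching into their windows.

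Long peaks of a mark were also found at genes where the other mark was low. The longest H3K4me3 peak at a gene with H3K27ac absent or below percentile 50 had 9246 bp and served ARL16, CCDC137 and HGS, with 37.2% of it under H3K27ac and an H3K27ac percentile of 44.7 in the window of ARL16 and 86.1 in that of CCDC137. PLEC, the cytoskeletal linker plectin, had 8941 bp of which 81.7% was under H3K27ac. RASSF7 had 8936 bp, with 89.9% under H3K27ac of percentile 8.92, and RGMB, a coreceptor of bone morphogenetic proteins, had 8828 bp, with 68.2% under H3K27ac of percentile 23.6. FLNA, the actin crosslinker filamin A, and NPB had 7894 bp each. The longest H3K27ac peak at a gene of low H3K4me3 had 11160 bp and lay at CEP295NL, of which 18.2% was under H3K4me3 of percentile 13.8. TEAD3, a transcription factor of the Hippo pathway, had 8065 bp of H3K27ac and an H3K4me3 percentile of 34.7, and SOX13 had 4851 bp with 5.55% under H3K4me3. FOXP4 had 4183 bp of H3K27ac and no H3K4me3 near its ends.

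The genes of smooth muscle contraction carried both marks over long stretches. Among the 23 contractile genes with both marks the H3K4me3 percentile ran from 66.0 to 98.5 with a median of 75.5, and the H3K27ac percentile from 36.6 to 99.3 with a median of 87.4, against medians of 82.4 and 87.9 over all genes with both marks. Their peaks had median lengths of 5242 bp for H3K4me3 and 3062 bp for H3K27ac, against 2596.5 and 1659.5 bp over all. MYH11, the smooth muscle myosin heavy chain, had peaks of 6773 and 5596 bp with percentiles of 79.1 and 96.6. CSRP1, a LIM protein of the actin cytoskeleton, had the longest H3K27ac peak of the list, 11916 bp, beside 10527 bp of H3K4me3, with percentiles of 74.1 and 97.5. SMTN, smoothelin, had 9430 and 7457 bp, in peaks at different ends of the gene. TPM1, a tropomyosin, had 9690 bp of H3K4me3 and, at the other end of the gene, a strongest H3K27ac peak of 211 bp. The H3K4me3 peak of TPM1 overlapped a different H3K27ac peak. The strongest peaks of the marks overlapped each other at 17 of the 23 genes. MYLK, the myosin light chain kinase, and PLN, phospholamban, had H3K4me3 only, with percentiles of 59.6 and 68.6, and both had both marks in the other tissues. CALD1, caldesmon, had neither mark within 3 kb of its annotated ends and both marks inside the gene.

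Receptors and signalling genes of contraction ranked lower for H3K27ac than the contractile genes, with a median of 74.7 at those with both marks beside 73.5 for H3K4me3. Of 28 placed genes 23 had both marks, 2 H3K4me3 only, 2 H3K27ac only and 1 neither. The shares of all protein-coding genes were 66.3%, 4.32%, 3.84% and 25.5%. OXTR, the oxytocin receptor, had an H3K4me3 peak of 243 bp with percentile 40.1 and no H3K27ac, and ADRA1A, an adrenergic receptor, had percentile 46.7. OXTR had both marks in the other tissues, whereas ADRA1A had H3K4me3 only in each. The H3K27ac percentile was low at PRKG1, the cGMP-dependent kinase (21.9 against 67.7 for H3K4me3), at ADRA2A (30.5 against 69.7) and at the muscarinic receptor CHRM3 (40.6 against 72.4). It was high at EDNRA, the endothelin A receptor (91.4 against 78.7) and at GJA1, the gap junction protein connexin 43 (93.4 against 89.7).

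The immune genes were taken by cell type and pathway. Of 23 genes of the interferon gamma response and antigen processing, 20 had both marks and 3, CXCL9, CXCL11 and IDO1, had neither. The shares of all protein-coding genes were 66.3% and 25.5%. The medians of the 20 were 85.6 for H3K4me3 and 93.1 for H3K27ac. IRF1, a transcription factor of interferon signalling, had 95.9 and 97.1, and SLA-DMB, a chaperone of MHC class II loading, had 85.7 and 99.8, whereas NLRC5, the transactivator of MHC class I, had 33.0 and 70.1. In GD15M_LM 15 of the 23 had both marks and 4 H3K4me3 only, and in CD15M_CM 17 and 1. Of all protein-coding genes 66.6% had both marks and 4.89% H3K4me3 only in GD15M_LM, and 68.4% and 3.98% in CD15M_CM. The counts with both marks in these tissues were near those shares.

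Many T cell genes had H3K4me3 without H3K27ac. Of 18 placed genes 9 had both marks and 9 H3K4me3 only, beside 66.3% and 4.32% of all protein-coding genes, and none of these 9 had H3K27ac anywhere in the gene or within 3 kb of it. They included CD3D, CD3E, CD6, CD8B, CD28, LAT, UBASH3A and THEMIS, and the H3K4me3 percentiles of the 9 ran from 29.3 to 68.0. Counted by peak and not by gene, 47.5% to 86.8% of all H3K4me3 peaks in the 3rd to 7th deciles overlapped H3K27ac. The share of this T cell class that goes with the rank of its peaks was not tested. LAT, the adaptor of T cell receptor signalling, had a peak of 2165 bp with a fold enrichment of 8.47, and UBASH3A had 2401 bp with 8.80. Where T cell genes had both marks, the H3K27ac percentile was between 19.2 and 67.3, and the best peaks overlapped at 3 of the 9. In GD15M_LM 13 of the 18 had H3K4me3 only, and in CD15M_CM 10, beside 4.89% and 3.98% of all protein-coding genes.

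Macrophage and B cell genes were mixed, with 6 of 16 with both marks and 5 with H3K4me3 only, beside 66.3% and 4.32% of all genes. The 5 were MRC1, CSF1R and the complement genes C1QA, C1QB and C1QC, with percentiles of 16.1 to 51.8, while CD14 (91.6 and 87.1) and TYROBP (96.7 and 98.8) had both marks at high rank. Both peaks of TYROBP and the H3K27ac peak of CD14 lay outside the gene and only reached into its window. Of 13 endothelial genes 8 had both marks, near the 66.3% of all genes, and 3, the receptors KDR and TEK and the transcription factor ERG, had H3K4me3 only. The median H3K27ac percentile of the 8 was 17.6 and that of H3K4me3 was 60.2. VWF, von Willebrand factor, had 62.3 for H3K4me3 and 8.20 for H3K27ac, and ROBO4, a guidance receptor of vessels, had 57.8 and 3.43, while SOX17 had 94.1 and 94.2. Of 12 fibroblast and mesothelium genes 9 had both marks, also near that share, among them WT1, with peaks of 12573 and 10171 bp.

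The epithelial genes differed from these in having both marks throughout, with medians of 75.8 for H3K4me3 and 76.1 for H3K27ac. KRT8, a keratin, had 81.4 and 76.1, and the adhesion protein CDH1 had 81.6 and 76.2. The longest H3K4me3 peak of the list, 24815 bp, reached into the window of the claudin gene CLDN7 but lay wholly outside the gene. The strongest H3K27ac peak in the window of CLDN7 did not overlap it. All 15 genes also had both marks in CD15M_CM, while 10 had both, 4 had H3K4me3 only and 1 had H3K27ac only in GD15M_LM. Among all protein-coding genes both marks were found at 68.4% in CD15M_CM and 66.6% in GD15M_LM, so the 10 genes were near that share.

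The developmental genes stood at the opposite end. Of 68 transcription factors of other lineages 53 had neither mark, beside 25.5% of all genes, and 5 had both, 8 H3K4me3 only and 2 H3K27ac only. The 8 with H3K4me3 only, which include NEUROG2, ATOH1, OTX1 and POU4F1, had percentiles between 6.71 and 49.9. FOXA2, a factor of uterine glands (95.6 and 90.6), PAX2 (78.8 and 89.9) and DLX5 (92.3 and 90.3) had strong peaks of both marks. Of 36 HOX genes 26 had both marks, a share near the 66.3% of all genes, and 5 H3K4me3 only. The 26 rested on 18 distinct H3K4me3 peaks, since neighbours share long domains, such as 22409 bp at HOXA9 and 20109 bp at HOXB3, HOXB5 and HOXB6. HOXA10, which the uterus needs to receive embryos, had percentiles of 97.6 and 99.3. These peaks lay outside the gene, beyond opposite ends, and did not overlap each other. The H3K4me3 domain of 22409 bp given for HOXA9 also spans HOXA10. HOXC9 and HOXC5 had H3K4me3 only with 55.0 and 46.6. Of the 6 steroid hormone receptors PGR had 92.9 for H3K4me3 and 72.0 for H3K27ac, ESR1 had 72.6 and 93.9, and NR3C2, the mineralocorticoid receptor, had 60.5 and 0.63 despite peaks of 4874 and 4475 bp. The peaks compared at ESR1 did not overlap each other, and its H3K4me3 peak met a different H3K27ac peak.

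Housekeeping and immediate early genes had both marks almost without exception. This held for 31 of 31 proteasome subunits, for 23 of 23 immediate early genes and for 75 of 76 ribosomal proteins. RPS3 was the exception, with H3K27ac only. Among all protein-coding genes 66.3% had both marks. The median percentiles of the immediate early genes, which respond to stimulation within minutes, were 91.1 for H3K4me3 and 95.7 for H3K27ac. NR4A2 had 99.3 and 99.6, FOSL2 had 99.2 and 99.8 over 8948 and 8292 bp, and ATF3 had 71.8 and 99.0. At 2 of the 75 ribosomal genes with both marks H3K4me3 was at least 50 points above H3K27ac. This is near the 2.65% of all genes with both marks. Both of these genes lie on the X chromosome: RPL10 (82.2 and 16.1) and RPL39 (74.9 and 19.2).

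**Figure D4:**
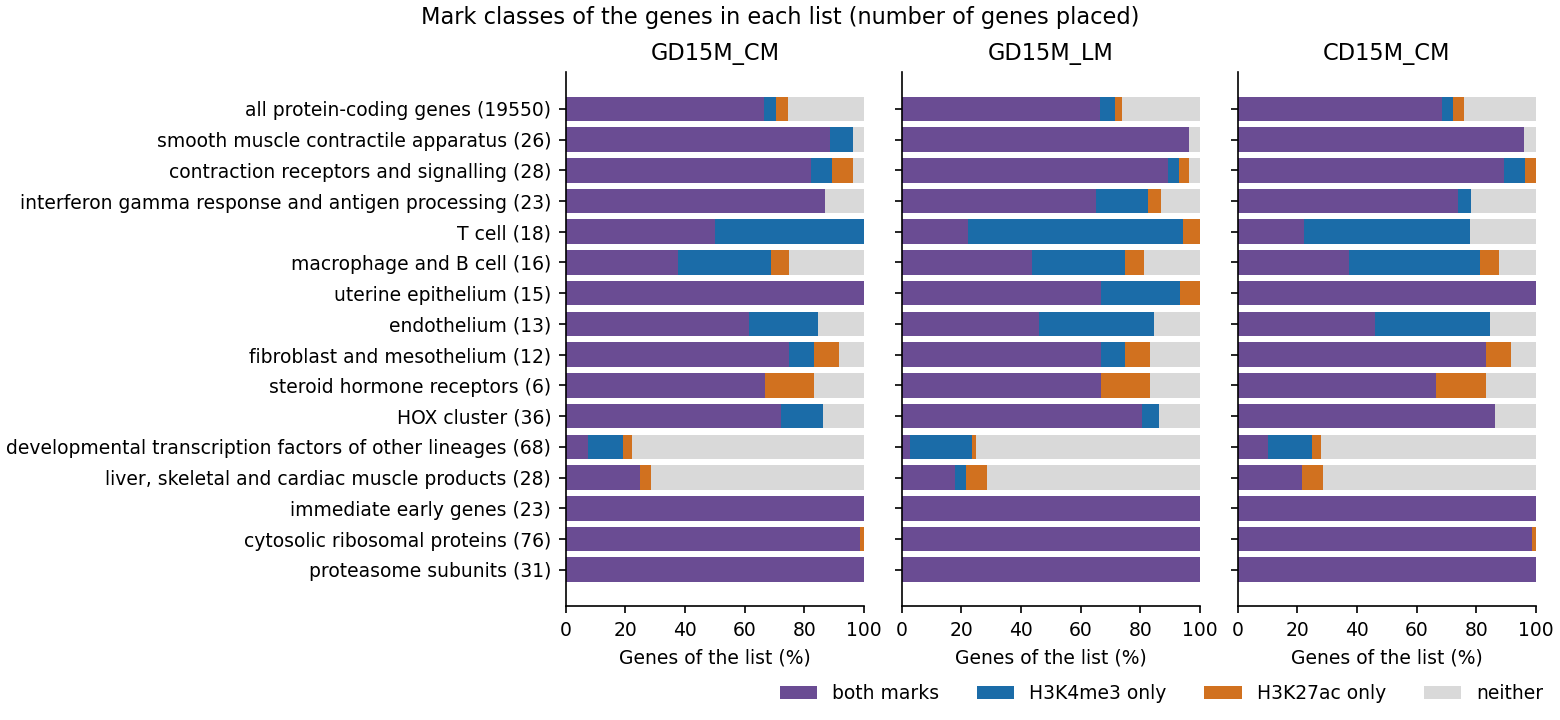
Stacked bars show the percentage of the placed genes of each list, with their number in brackets, that had both marks (purple), H3K4me3 only (blue), H3K27ac only (orange) or neither (grey) in the 3 tissues. In GD15M_CM the T cell list had 9 of 18 genes in the blue class, while the epithelial, immediate early and proteasome lists were wholly purple.

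The genes that the study names for their H3K4me3 differences were looked up in the same way. CD3E had H3K4me3 only (percentile 51.7, 1402 bp) and CAMKK2, a kinase of calcium signalling, had H3K27ac only near its ends (52.1, 1296 bp), with H3K4me3 inside the gene. The others had both marks. MYL9, a myosin light chain, had 74.6 and 73.9 with peaks of 4438 and 4547 bp, GBP1 had 96.8 and 95.3, and PSMB9 had 88.2 and 91.2. H3K4me3 was above H3K27ac at LCK (90.9 and 63.6), at C3 (51.9 and 4.82), at CD8A (66.8 and 34.3) and at the MHC class I gene SLA-6 (80.9 and 40.6). The peaks compared at LCK lay at opposite ends of the gene and did not overlap. Its H3K4me3 peak met a different H3K27ac peak, so the LCK values do not compare the marks at the same place.

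Against the autosomes, the marks stood apart on the X chromosome, which was noticed after the values had been seen. Of its 762 protein-coding genes 365 (47.9%) had both marks, 100 (13.1%) H3K4me3 only and 9 (1.18%) H3K27ac only. Over the 18 autosomes together the shares were 67.3%, 3.97% and 3.96%, and the share with H3K4me3 only lay between 2.32% and 7.83% on single autosomes. A chromosome has no replicate here, and the difference has no test. At genes with both marks the median difference of the percentiles, H3K4me3 minus H3K27ac, was 9.95 on X and between −3.003 and −1.15 on the autosomes. H3K4me3 ranked higher at 69.9% of the X genes with both marks and at 37.3% to 44.4% of those on an autosome. The median H3K27ac percentile was 64.9 on X and 86.1 to 90.5 on the autosomes, while that of H3K4me3 was 74.9 and 79.1 to 85.4, so both marks ranked lower on X and H3K27ac the more so. There were 1.298 H3K27ac peaks for each H3K4me3 peak on X and 1.79 to 3.17 on the autosomes. Of the 344 genes with H3K4me3 at least 50 points above, 30 (8.72%) lay on X, which holds 2.82% of the genes with both marks, among them KDM5C, RPL10, RPL39 and RBMX, a splicing factor (96.1 and 35.05).

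The same was seen in the lists of both other tissues. The median difference on X was 6.17 in GD15M_LM, with autosomes between −1.71 and 0.57, and 14.7 in CD15M_CM, with autosomes between −1.64 and 0.76. The share of X genes with H3K4me3 only was 11.02% and 11.4%, above the highest autosome at 8.41% and 7.74%. All animals were gilts, which carry a pair of X chromosomes. Neither the number of reads on X nor the IgG signal there is held in the lists, and their part in these values was not tested. A total of 33 peaks of both marks were placed on Y in these female animals.

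**Figure D5:**
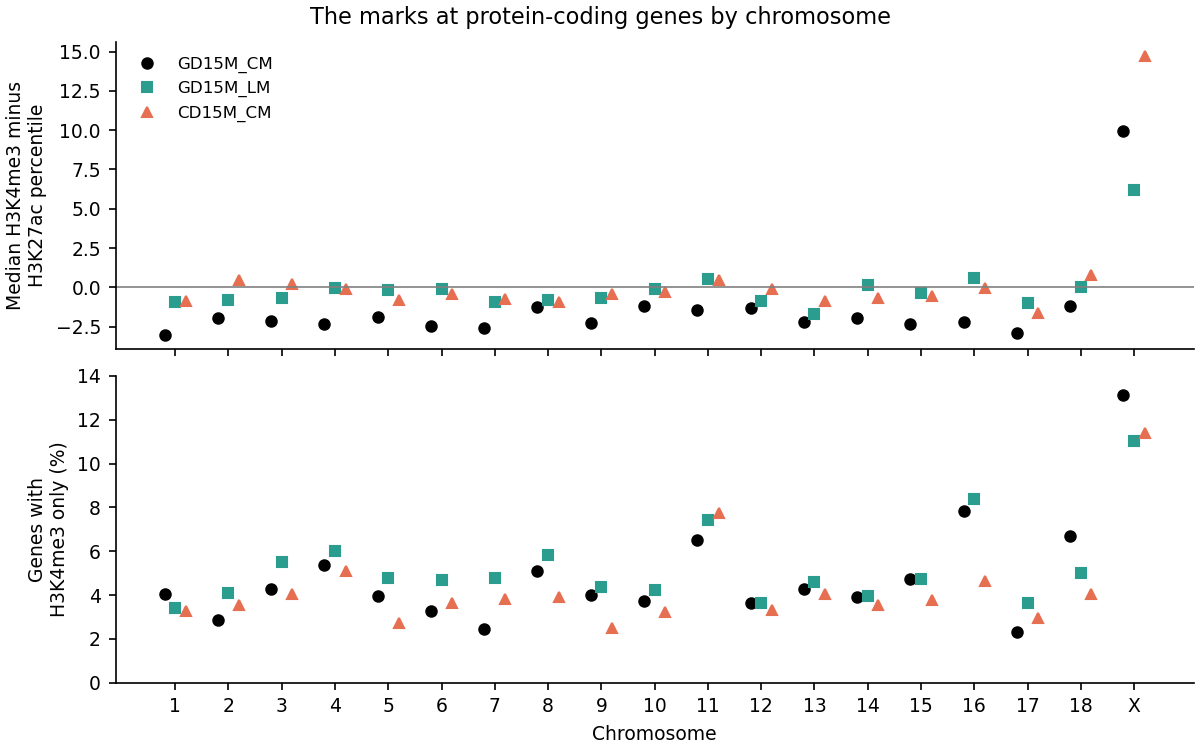
For each chromosome the median difference of percentiles at genes with both marks (upper panel, H3K4me3 minus H3K27ac) and the percentage of protein-coding genes with H3K4me3 only (lower panel) are plotted for the 3 tissues. In GD15M_CM (black) X lay at 9.95 points and 13.1%, above all 18 autosomes.

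Classes with a single mark were less constant across tissues than the class with both. Of the 12962 genes with both marks in GD15M_CM, 95.9% had both in GD15M_LM and CD15M_CM as well. Of the 845 genes with H3K4me3 only, 419 (49.6%) were in that class in GD15M_LM, 405 (47.9%) in CD15M_CM and 277 (32.8%) in both. In CD15M_CM 371 of them (43.9%) had both marks. Of the 750 genes with H3K27ac only, 285 (38.0%), 397 (52.9%) and 231 (30.8%) were in that class in GD15M_LM, CD15M_CM and both, and 315 (42.0%) had neither mark in GD15M_LM. Single peaks showed the same order. An H3K4me3 peak of GD15M_LM was found at 84.3% of the H3K4me3 peaks with H3K27ac and at 54.0% of those without. An H3K27ac peak of GD15M_LM was found at 76.1% of the H3K27ac peaks with H3K4me3 and at 39.9% of those without, and the shares in CD15M_CM were 85.6% and 59.3%. Single-mark peaks were also weaker, and the share of these differences that goes with their fold enrichment was not tested. Of the H3K4me3-only peaks, 11.4% lay under an H3K27ac peak in GD15M_LM and 17.2% in CD15M_CM.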

How the data were processed

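Peak lists of pooled gilts were analysed, 1 list per mark and tissue, each with n = 2 gilts. The authors mapped reads to Sscrofa11.1 with BWA 0.7.17-r1188, filtered them with SAMtools 1.9 and Picard 2.8.3, and called peaks on pooled replicates with MACS2 2.2.6, as the submitters' processing notes list. The deposited fold enrichment is a ratio over IgG as MACS2 writes it, and how the libraries were scaled is not given in the sources used here. The deposited −log10 p values came under an unreadable column name, and a further column, taken as −log10 q, was not used. No p-value of a peak was used as a test.

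All steps used Python 3.11.15, pandas 2.3.3, NumPy 2.4.6 and SciPy 1.17.1, with Matplotlib 3.10.9 for figures. Genes were RefSeq protein-coding genes of Sscrofa11.1, without strand, and 419 of 436 listed genes were placed. A peak belonged to a gene if it reached within 3 kb of either end. A percentile is the rank of a peak by fold enrichment in its own list. Members, lists and rules were chosen with earlier results of these data known. Named genes were, among those with a symbol, the 8 with the largest difference of percentile in each direction, the 8 highest of each single-mark class, the 6 longest peaks per mark where the other was low, the 5 strongest peaks per class, list members and genes the study names. Genes that share the deciding peaks counted once. The overlap code was tested on simulated data, with 0 of 800 overlaps wrong. Alternatives were a 50% overlap, joined peaks, a strict threshold, equal list lengths, a 1 kb window, ranking by −log10 p or over genes with both marks, and genes with a symbol. Windows over the whole gene, or extended by the peaks reaching into them, were added after seeing the data. Some items that the rules name are not reported here.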

Additional observations from a re-analysis of the deposited data

How the results depend on the processing

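No paired analysis was possible because the lists hold pooled gilts only, and for the same reason no replicate could be left out. The share of H3K4me3 peaks with H3K27ac and of H3K27ac peaks with H3K4me3 (69.6% and 34.1%) was 60.3% and 29.8% when 50% of the peak had to be covered, 83.2% and 35.9% with peaks less than 1 kb apart joined, 43.7% and 74.1% under the strict threshold and 52.9% and 54.6% with equal list lengths. Under the strict threshold 6764 genes had both marks, 6094 H3K4me3 only and 55 H3K27ac only, with a rho of 0.46, 957 genes with H3K4me3 at least 50 points above and 41 with H3K27ac above. With equal list lengths 2043 genes had H3K4me3 only and 253 H3K27ac only, and 1402 and 17 genes passed the difference of 50 points. Ranked by −log10 p, 137 genes had H3K4me3 at least 50 points above, and with percentiles taken over genes with both marks 422 had H3K4me3 and 319 H3K27ac that far above. The numbers of genes in the single-mark and disagreement classes are thus set by these choices. The 1 kb window and the whole gene moved no gene count by more than 1.5 times, nor did genes with a symbol only and the extended window for the class counts, the only ones run with them. Depth per library was not used here, and weak H3K27ac peaks limit the class H3K4me3 only.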
